A study of Mus musculus with 2 samples.

Results

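Broad hotspots are long unbroken stretches of chromatin that DNase I cut more than its surroundings. In embryonic mouse hindbrain, 1912 of the 231303 hotspots of replicate 1 (0.827%) were 2000 bp or longer and had 50% or more of their length covered by hotspots of replicate 2, on chromosomes 1 to 19 and X. They were taken from the 2068 hotspots of replicate 1 that met the length alone, of which 92.5% also met the coverage rule. They were selected on their measured length and coverage, so both are given as a description. They are called broad shared hotspots here and are set beside the 15000 hotspots of 500 to 1000 bp in replicate 1 that met the same coverage rule. The data came from DNase-seq on hindbrain tissue of B6NCrl mouse embryos at embryonic day 14.5, with males and females pooled, in 1 group of 2 biological replicates. The labels give each replicate its own biosample but the same donor identifier, so how far the replicates are independent is not known, and agreement between them may be technical. There was no other tissue, stage or treatment, so no difference between conditions could be tested.

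In DNase-seq the nuclease DNase I cuts where nucleosomes are displaced or loosely held, and the cut ends are sequenced. Peaks mark the narrow sites of most cutting, such as a promoter or an enhancer, and hotspots mark the wider regions of enriched cutting around them. Many mammalian promoters lie in CpG islands, stretches rich in G, C and the dinucleotide CG that escape the loss of CG seen in the rest of the genome, and such promoters are often free of nucleosomes over a wide span.

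The sequences below are single peaks of 150 bp from the inside of broad shared hotspots, to show what kind of DNA they hold away from exons. They are the peak with the highest mean score rank in both replicates among those without an annotated exon, from the 3 longest hotspots with a protein-coding start site within 1 kb and the 3 longest with no start site at all. All are the plus strand of GRCm38, read from RefSeq's GRCm38.p6, with each CG in capitals.
Tnrc18 hotspot, chr5:142819836-142819985, 2249 bp from the nearest start site: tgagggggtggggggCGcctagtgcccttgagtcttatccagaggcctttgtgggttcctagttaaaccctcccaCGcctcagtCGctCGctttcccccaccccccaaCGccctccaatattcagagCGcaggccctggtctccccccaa
Mex3b hotspot, chr7:82867936-82868085, 678 bp from the nearest start site: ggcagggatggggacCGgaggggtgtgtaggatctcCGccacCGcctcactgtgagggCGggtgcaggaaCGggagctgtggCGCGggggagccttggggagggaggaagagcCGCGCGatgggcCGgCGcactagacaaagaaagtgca
Pcdh7 hotspot, chr5:57715836-57715985, in an intron, 2009 bp from the nearest start site: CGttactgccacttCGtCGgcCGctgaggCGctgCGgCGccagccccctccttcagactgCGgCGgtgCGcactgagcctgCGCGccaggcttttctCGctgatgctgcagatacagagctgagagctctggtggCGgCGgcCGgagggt
Hotspot near Gm10837, chr14:122485116-122485265, between genes: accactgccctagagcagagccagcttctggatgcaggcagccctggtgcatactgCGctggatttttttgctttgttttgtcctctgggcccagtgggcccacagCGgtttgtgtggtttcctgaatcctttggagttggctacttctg
Hotspot near Slc17a6, chr7:51627376-51627525, in an intron: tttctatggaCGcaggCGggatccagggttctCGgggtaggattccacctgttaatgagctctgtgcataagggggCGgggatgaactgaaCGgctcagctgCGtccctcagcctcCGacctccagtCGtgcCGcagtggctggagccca
Hotspot near Kif13b, chr14:64595456-64595605, between genes: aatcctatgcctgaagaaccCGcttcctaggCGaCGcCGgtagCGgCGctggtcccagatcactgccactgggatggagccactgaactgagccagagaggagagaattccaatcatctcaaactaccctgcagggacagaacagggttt
The Tnrc18, Mex3b and Pcdh7 peaks held 6, 12 and 16 CG. The peaks of the hotspots without a start site held 2 near Gm10837, 9 near Slc17a6 and 6 near Kif13b. Peak scores in replicates 1 and 2 were 131 and 80 at Tnrc18, 93 and 55 at Mex3b, and 134 and 91 at Pcdh7. They were 73 and 31 near Gm10837, 104 and 46 near Slc17a6, and 92 and 56 near Kif13b. Of these peaks, the Slc17a6 one held the GC box GGGGCGGGG, which SP and KLF factors bind, and the E-box CAGCTG. The Gm10837 one held the core of the CTCF motif and the SOX motif ACAAAG, which the Tnrc18 and Mex3b peaks also held. The Pcdh7 and Kif13b peaks held none of the motifs searched.

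The labelled tissue was checked by whether marker genes had a hotspot of any length, meeting the coverage rule, within 1 kb of a start site. All 6 neuronal markers did, as did 6 of 8 markers of hindbrain position (not Hoxb2 and Zic4). So did 3 of 5 progenitor markers (not Hes5 and Sox2) and 3 of 7 forebrain markers. Of the other tissues, 1 of 15 liver, 4 of 20 blood and microglia, 10 of 21 endothelial and meningeal, 7 of 15 skeletal muscle and 2 of 14 epidermis genes did. Over all protein-coding genes 13188 of 21755 did, so 3 of 5 progenitor markers is near the share of all genes. These short lists check the label only weakly. Sox2 had a replicate 1 hotspot of 5767 bp, but 45.9% of it was covered. Replicate 1 held 231303 hotspots and 263625 peaks, and replicate 2 held 133149 and 148743. Read depth is unknown, since the files hold no counts, so a hotspot shorter or absent in replicate 2 cannot be told apart from lower depth there.

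Broad shared hotspots had a median length of 2343 bp (quartiles 2149 to 2695 bp) and reached 7733 bp. They spanned 4.83 Mb, 5.93% of the bases in replicate 1 hotspots. Replicate 2 hotspots covered a median of 85.2% of their length (quartiles 75.2% to 92.9%). That coverage was usually in pieces. A single replicate 2 hotspot overlapped 22.4% of them, and the longest overlapping replicate 2 hotspot had a median of 1529 bp. It reached 2000 bp in 446 of the 1912 (23.3%, 95% Wilson interval 21.5% to 25.3%). In the others, no single replicate 2 hotspot over them was that long. Read from replicate 2, 520 hotspots were 2000 bp or longer, and 510 of them (98.1%) had 50% or more of their length in replicate 1 hotspots. The Wilson intervals here cover counting error over regions and not the spread between embryos.

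**Figure D1:**
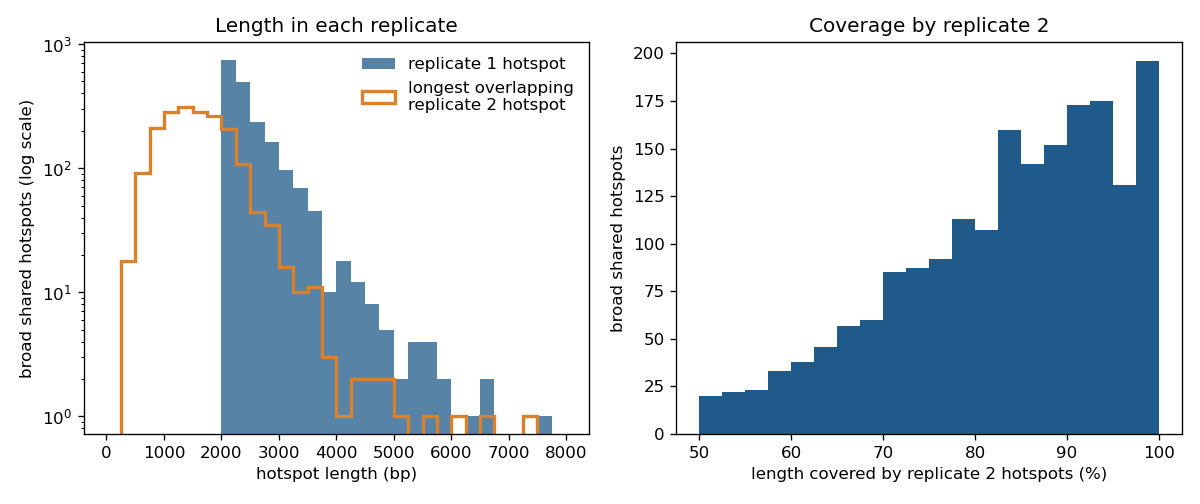
Left, lengths in bp of the 1912 broad shared hotspots in replicate 1 (filled) and of the longest replicate 2 hotspot overlapping each (line), on a log count axis. Right, the percentage of each hotspot's length covered by replicate 2 hotspots. The replicate 2 lengths have a median of 1529 bp, below the 2000 bp at which the filled bars start by rule, and the median coverage is 85.2%.

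The hotspots nearest the thresholds lay at promoters. At 2001 bp were those of Mib1, Stx16 and Paxbp1, and at 1999 bp, just outside, those of Baiap2, Spast and Tbpl1. Just inside the coverage rule were hotspots of Srd5a3 (50.05%), Gas1 and Cacna2d1 (both 50.2%), and just outside it those of Nrarp (49.95%), Fbn1 (49.9%) and Il3ra (49.8%). Long hotspots that failed the coverage rule included several at regulators of neural development. The longest hotspot of replicate 1, 8052 bp at Zic2, a zinc finger factor of the early neural tube, had 43.6% of its length covered. Those of Gad1, the enzyme that makes the transmitter GABA (5770 bp), Sox2, a factor of neural progenitors (5767 bp), Pcdh17, a protocadherin (5616 bp), and Tgif1, a homeodomain repressor (5012 bp), were covered for 34.1%, 45.9%, 43.8% and 45.7%.

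The longest broad shared hotspot spanned 7733 bp at Tnrc18 (chr5:142816333-142824065), which encodes a large protein with a BAH domain, a fold found in chromatin regulators. It was covered for 98.2%, by 3 replicate 2 hotspots of which the longest had 6166 bp, and held 13 peaks in replicate 1 and 11 in replicate 2. The hotspot at Mex3b, a KH-domain RNA-binding protein, spanned 6545 bp (chr7:82864214-82870758), was covered for 98.5%, by 5 replicate 2 hotspots of which the longest had 4024 bp, and held 12 and 14 peaks. The hotspot of Pcdh7, a protocadherin of the neuronal surface, was nearly as long at 6449 bp (chr5:57713949-57720397). Replicate 2 split it into 9 hotspots, none over 1145 bp, that together covered 77.3%. All 3 were split in replicate 2, with longer pieces at Tnrc18 and Mex3b than at Pcdh7.

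Of the other 12 among the 15 longest, 7 had a protein-coding start site. The MYC proteins drive growth and proliferation. Mycn had a hotspot of 5922 bp (73.1% covered, longest replicate 2 hotspot 1874 bp), and Myc one of 5260 bp that replicate 2 matched with a single hotspot of 5225 bp. Marcks, which links membranes to actin in growing neurites, had 5729 bp in replicate 1 and a single hotspot of 5728 bp in replicate 2 (chr10:37135919-37141647). The others with a protein-coding start site lay at Nfil3, a bZIP repressor (5677 bp), Ebf3, a factor of differentiating neurons (5599 bp), Brd2, a bromodomain protein that binds acetylated histones (5406 bp), and Efna5, the guidance ligand ephrin-A5 (5212 bp). Replicate 2 hotspots covered 91.2%, 76.7%, 84.6% and 70.2% of these. Of the members lying wholly in replicate 2 hotspots, the longest were at Arrdc3 (4640 bp), Tmem178b (3633 bp) and the long noncoding RNA C130071C03Rik (3626 bp). The 3169 bp hotspot at Tubb2b, a beta-tubulin of developing neurons, had the same length in both replicates.

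Most broad shared hotspots lay at protein-coding promoters. A start site of a protein-coding gene fell inside or within 1 kb in 1699 of 1912 (88.9%, 95% Wilson interval 87.4% to 90.2%), against 3609 of the 15000 hotspots of 500 to 1000 bp (24.1%, 23.4% to 24.8%). That lower share depended on the library: by length alone it was 17.7% of the 500 to 1000 bp hotspots of replicate 1 and, without replicate 1, 47.1% of those of replicate 2, where 82.9% of hotspots of 2000 bp or longer had such a start site. A longer region meets more start sites, so the distance was also taken from the midpoint, which gave 84.8% against 22.8%. Of the remaining 213, 75 (3.92%) had only noncoding start sites nearby and 138 (7.22%) had none, against 70.7% without any start site in the 500 to 1000 bp class. The share with a protein-coding start site was already 83.1% at 1500 to 1999 bp, and 89.2% at 2000 to 2499 bp. Above 4000 bp it was 81.4% of 59 hotspots, and from the midpoint 55.9%. In all, 1861 of 21755 protein-coding genes (8.55%) had a broad shared hotspot within 1 kb of a start site. By replicate 1 hotspots of 2000 bp or longer alone 9.1% of genes did, and by those of replicate 2 alone 2.22%. For 13.8% of genes the longest shared hotspot had 500 to 1000 bp.

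Measured from a single start site in each, the hotspots reached farther downstream than upstream. Where a hotspot held several start sites of its gene, the choice among them moves length from one side to the other. Taking one farther upstream lengthens the downstream side, which is the direction reported here. The part of that choice in the values below was not tested. Over the 1128 broad shared hotspots with the start sites of a single gene, they extended a median of 938 bp upstream (quartiles 654 to 1236 bp) and 1448 bp downstream (1170 to 1804 bp). The downstream side was the longer in 74.4%. In the 500 to 1000 bp class the medians were 333 and 432.5 bp, with the downstream side longer in 63.4% of 2370. At 1000 bp downstream, 86.2% of the broad hotspots of replicate 1 still covered the position, against 44.4% at 1000 bp upstream. Replicate 2 gave 69.6% and 38.4%, which is no separate support, since the coverage rule ties its hotspots to those of replicate 1.

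**Figure D2:**
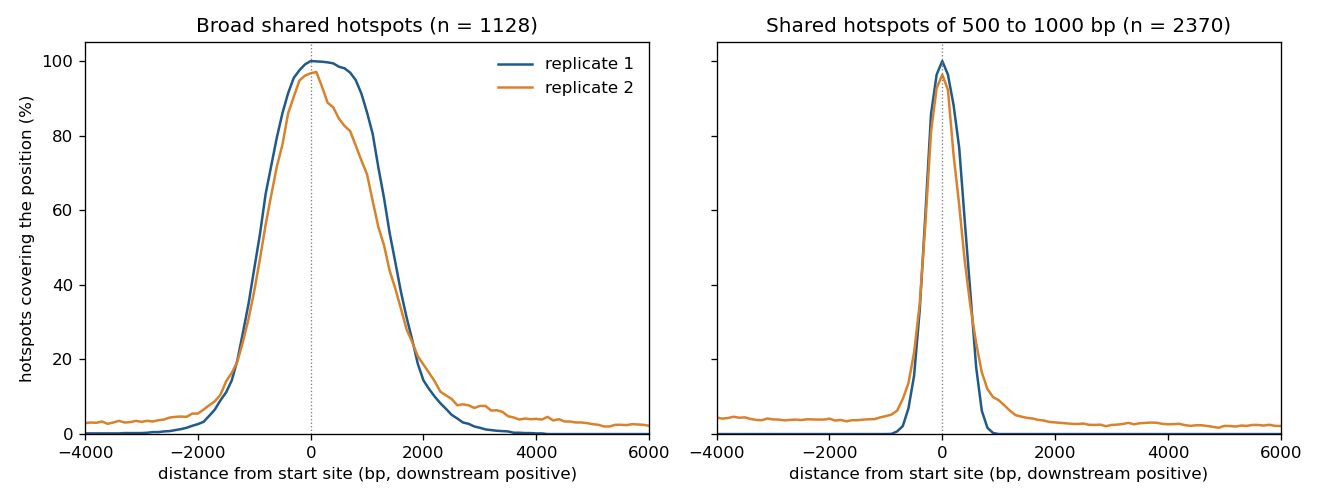
Percentage of hotspots covering each distance from the start site (bp, downstream positive), in replicate 1 and replicate 2, for broad shared hotspots (left, n = 1128) and shared hotspots of 500 to 1000 bp (right, n = 2370). The left curves lean downstream in both replicates, with 86.2% and 69.6% covered at 1000 bp downstream against 44.4% and 38.4% at 1000 bp upstream. A single start site was used per hotspot. Taking one farther upstream adds to the lean, and the effect of that choice was not tested.

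CpG content was high and depended on whether a start site was present. In the central 500 bp, a window that does not change with hotspot length, the observed/expected CpG ratio (the number of CG over that given by the C and G content) had a median of 0.821 (quartiles 0.665 to 0.945). It was 0.370 in the 500 to 1000 bp class (0.239 to 0.576). The ratio was 0.6 or more in 80.9% against 23.1%. Among hotspots with a protein-coding start site the medians were closer, 0.845 against 0.717. Without any start site they were 0.578 (n = 138) and 0.310 (n = 10612). Central GC content was 67.2% against 51.2%. Sequence with island-like composition, in windows of 200 bp, took a median of 68.7% of a broad hotspot's length, and 2.46% of the broad hotspots had none of it, against 59.4%. A longer hotspot holds more such windows, which by itself lowers the share with none. At protein-coding start sites the island-like share was 70.7% against 75.1%, so the broad hotspots were not the more island-filled per base there.

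**Figure D3:**
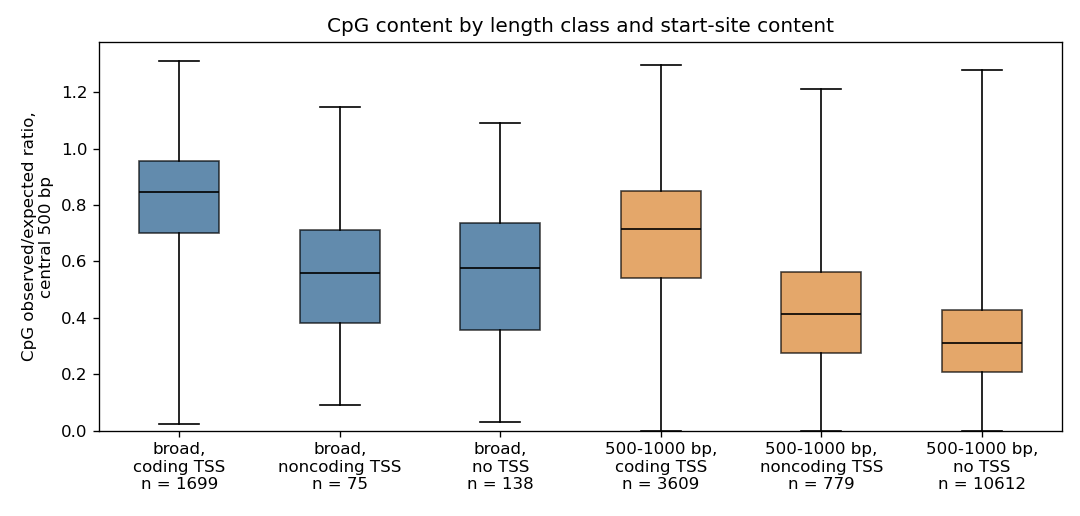
CpG observed/expected ratio of the central 500 bp for broad shared hotspots (blue) and shared hotspots of 500 to 1000 bp (orange), split by protein-coding, noncoding only or no start site within 1 kb. Boxes show quartiles with the median line and whiskers the full range over regions. The median falls from 0.845 to 0.578 between broad hotspots with a protein-coding and with no start site, and from 0.717 to 0.310 in the shorter class.

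Across the broad shared hotspots, length and central CpG ratio had a Spearman correlation of -0.11 (n = 1912, regions of the same library), and the median ratio fell from 0.842 at 2000 to 2499 bp to 0.674 at 4000 bp or more. Some had almost no CpG in the central 500 bp. The lowest central ratio was 0.0252, at Ttyh1, which encodes a membrane protein of neural cells (2194 bp, 75.6% covered). Over the whole Ttyh1 hotspot the ratio was 0.201. Read from the genes, 24.5% of those in the highest of 10 equal classes of promoter CpG ratio had a broad shared hotspot, against 0.919% in the lowest. In the highest class 10.5% had 500 to 1000 bp as their longest shared hotspot.

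Broad shared hotspots held more peaks each than shorter ones, with similar medians per kb. Their 8519 replicate 1 peaks were 3.23% of that library's peaks, and their 8616 replicate 2 peaks 5.79%. A hotspot held a median of 4 peaks in each replicate (quartiles 3 to 5 in both), against 1 in each replicate in the 500 to 1000 bp class. In replicate 1, 73.3% held 4 or more and 84 (4.39%) held 8 or more. Per kb the medians were 1.77 and 1.77 peaks in replicates 1 and 2, against 1.76 and 1.84. This measure still depends on length. In the shorter class 10732 of 15000 hotspots held 1 replicate 1 peak, and there the value per kb is set by length alone. Neighbouring peaks inside a hotspot lay a median of 480 and 460 bp apart, against 320 and 300 bp in the shorter class, where the hotspot's length limits the distance. Peaks per hotspot in the 2 replicates had a Spearman correlation of 0.583 over the 1912 regions, which share the rule's length threshold.

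**Figure D4:**
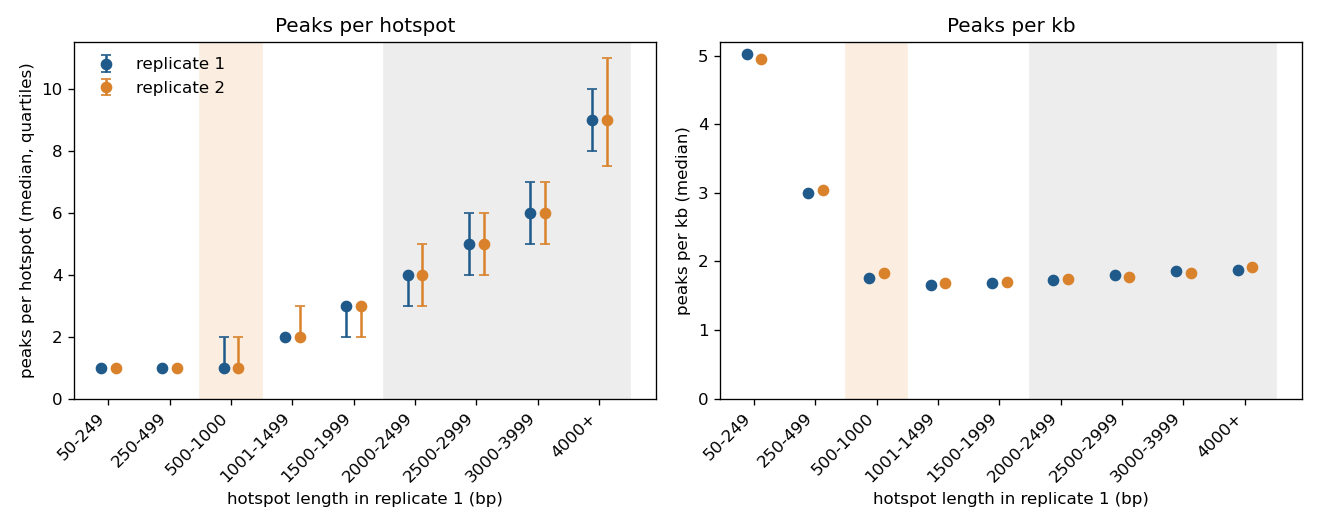
Left, peaks per hotspot (median, bars are quartiles) and right, median peaks per kb, by replicate 1 hotspot length in bp, for hotspots meeting the coverage rule. The orange band marks 500 to 1000 bp and the grey band the broad shared hotspots. Peaks per hotspot grow from a median of 1 to 9 with length in both replicates. Peaks per kb stay between 1.65 and 1.91 from 500 bp on and are higher in shorter hotspots.

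In single-gene broad hotspots the strongest peak mostly lay near the start site, with weaker peaks on both sides. At protein-coding start sites the highest peak score had a median of 136 in replicate 1 and 104 in replicate 2, against 120 and 82 in the 500 to 1000 bp class, where it is the highest of fewer peaks. The median peak score of a hotspot went the other way there, at 90 against 112 in replicate 1 and 49 against 69.5 in replicate 2. Over the 1128 hotspots with a single gene, positions were taken from the most upstream start site inside the hotspot. Peaks at other start sites of the gene therefore count as downstream, and the part of this in the values was not tested. The highest peak lay a median of 56 bp upstream of that start site in replicate 1 and 53 bp in replicate 2. It was within 250 bp in 65.9% and 66.1%, against 91.6% and 91.4% in the shorter class. Of the replicate 1 peaks in these hotspots, 53.2% lay more than 250 bp downstream and 23.8% more than 250 bp upstream. Their median scores were 78 downstream, 130 within 250 bp and 86.5 upstream, and in replicate 2 they were 40, 95 and 45. Of all member peaks of replicate 1, 81.0% overlapped a replicate 2 peak, against 90.9% in the 500 to 1000 bp class and 42.4% of all replicate 1 peaks. Both classes were chosen for coverage by replicate 2 hotspots, which raises their overlap over that of all peaks by rule.

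Peaks in broad shared hotspots differed in motif content from those in shorter ones. The GC box GGGGCGGGG, on either strand, occurred in 8.79% of their replicate 1 peaks, 3.85% of those in the 500 to 1000 bp class and 1.92% of all 263625 peaks. The core of the CTCF motif, which marks insulator sites, was in 1.93%, 6.33% and 5.18%. The homeodomain core TAATTA was in 1.66%, 5.97% and 6.94%, and the E-box CAGCTG, read by bHLH factors, in 9.79%, 16.0% and 15.4%. Farther than 1 kb from every start site the order was the same, with CTCF in 2.59% against 7.59%, TAATTA in 3.20% against 7.60% and the GC box in 3.93% against 1.58%. Peaks of the broad hotspots were richer in GC (median 61.3% against 53.3%) and held a median of 9 CG against 4, and the part of base composition in these shares was not tested.

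Over all replicate 1 peaks within 1 kb of a start site, the GC box was in 10.6% of those in broad hotspots (95% Wilson interval 9.86% to 11.4%) and 9.79% of those in shorter ones (9.02% to 10.6%), and these intervals overlap. At promoters the comparison was also made with the highest replicate 1 peak of each hotspot, so that each counts equally. That peak is the highest of more peaks in broad hotspots. In single-gene hotspots it lay within 250 bp of the start site in 65.9%, against 91.6% in the shorter class. The comparison thus sets peaks at partly unlike positions side by side. The GC box was in 368 of 1699 broad hotspots with a protein-coding start site (21.7%, 95% Wilson interval 19.8% to 23.7%), against 430 of 3606 shorter ones (11.9%, 10.91% to 13.02%). The motif of ETS factors, CCGGAAGT, went the other way, with 39 of 1699 (2.30%, 1.68% to 3.12%) against 278 of 3606 (7.71%, 6.88% to 8.63%). The NRF1 motif, another element of CpG-island promoters, was in 0.824% against 1.66%. The cyclic-AMP element TGACGTCA was in 3.18% and 3.02%. Over all replicate 1 peaks within 1 kb of a start site it was in 1.27% (1.02% to 1.58%) against 2.16% (1.80% to 2.58%). Both the GC box and the ETS motif hold a CG, and the median GC content of the highest peaks was 68.7% against 62.7%. A match is a run of letters in the peak and not a measured binding site.

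Gene lists showed where the 1861 genes lay, as counts beside the 8.55% of all protein-coding genes and with no test. The lists of pan-neuronal, chromatin, RNA-binding, surface and signalling genes had median promoter CpG ratios from 0.638 to 0.823, against 0.558 over all genes. Of all genes in the upper 5 of the 10 classes of that ratio, 14.4% had a broad shared hotspot. The part of CpG content in the shares of the lists was not tested. Pan-neuronal genes, which build the neuronal cytoskeleton and synapse, had the highest share, 15 of 25 (60%), and 7 of 25 (28%) with a replicate 2 hotspot of 2000 bp or longer. After Marcks and Dpysl3, which guides neurite growth, the longest was Ina, an intermediate filament of neurons (3252 bp, longest overlapping replicate 2 hotspot 1996 bp), followed by Tubb2b. Tuba1a, an alpha-tubulin of newborn neurons, had 2984 bp in replicate 1 and 3923 bp in replicate 2. The vesicle-fusion gene Snap25 had 2954 and 1145 bp, and Stmn2, a microtubule regulator of growth cones, 2945 and 1620 bp. Rbfox3, the splicing factor known as NeuN, had 2466 bp in replicate 1 but no overlapping replicate 2 hotspot over 613 bp. Their central CpG ratios were not uniformly high, at 0.428 for Tubb2b, 0.371 for Tuba1a and 0.466 for Stmn2 against 1.06 for Ina. Of the markers Tubb3, Dcx and Map2, none had one. Their longest replicate 1 hotspots were 1762, 877 and 1508 bp, though Map2 had 2324 bp in replicate 2.

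Chromatin regulators came next, with 22 of 47 (46.8%). Besides Tnrc18 they included Smarca2, an ATPase of the SWI/SNF remodeller (4305 bp), the histone H3K4 methyltransferases Kmt2a (3385 bp) and Kmt2c (3179 bp), and the H3K36 methyltransferase Nsd1 (3283 bp). The longest overlapping replicate 2 hotspots were 1410 bp at Smarca2, 2775 bp at Kmt2a, 3214 bp at Kmt2c and 2834 bp at Nsd1. Polycomb genes were among them too, with Ezh2 at 2527 bp (93.8% covered) and Eed at 2246 bp (58.7%). At Hdac4, a histone deacetylase, the strongest peak scored 150 in replicate 1, the highest score of that library, and 128 in replicate 2. RNA-binding regulators had 12 of 42 (28.6%), including all of Mex3a, Mex3b, Mex3c and Mex3d, a family of RNA-binding ubiquitin ligases. The Mex3 hotspots were 3146, 6545, 3409 and 3547 bp long and were covered for 63.9%, 98.5%, 86.9% and 52.9%.

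Surface and signalling genes had shares of 19.4% to 43.8%. Of cadherins and protocadherins outside the gene clusters, 14 of 32 (43.8%) had a broad shared hotspot. The giant cadherins Fat4, Fat1 and Fat3 had 4836, 4638 and 3073 bp, and Fat1 a single replicate 2 hotspot of 4661 bp. Cdh2, the N-cadherin of neural epithelium, had 3673 bp, Celsr3, a planar polarity receptor of axon tracts, 3535 bp, and Pcdh10 3393 bp. FGF and BMP signalling had 22 of 54 (40.7%), but only 1 of 54 with a replicate 2 hotspot of 2000 bp or longer. Members by role were the ligands Fgf15 (2992 bp) and Gdf11 (2554 bp), the receptors Fgfr2 (3577 bp) and Bmpr2 (2882 bp), and the inhibitors Spry2 (3601 bp), Fst (2884 bp) and Chrd (2558 bp). Replicate 2 broke Fgfr2 into 5 hotspots covering 67.3%, and covered 97.2% of Bmpr2.

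Wnt signalling had 16 of 54 (29.6%), with the ligands Wnt7a (2822 bp) and Wnt5a (2539 bp), the receptors Fzd8 (3722 bp) and Fzd2 (3214 bp), and the corepressor Tle1 (3529 bp). In replicate 2, 2 of 54 Wnt genes (3.70%) had a hotspot of 2000 bp or longer. Axon guidance had 18 of 66 (27.3%). Besides the ligand Efna5 there were the ligand Efnb2 (4433 bp), the receptors Epha7 (3711 bp), Ephb1 (3317 bp) and Dcc (2495 bp), and Nrp1, a receptor for semaphorins (3587 bp). Their longest overlapping replicate 2 hotspots ran from 820 bp at Nrp1 to 1528 bp at Epha7. With 1 gene of 66 past 2000 bp in replicate 2 (1.52%, against 2.22% of all genes), this list stood high by replicate 1 lengths and not by those of replicate 2. Notch and Hedgehog signalling had 6 of 31 (19.4%), among them Rbpj, the DNA-binding partner of Notch (3597 bp), and the ligands Dll1 (2624 bp) and Jag2 (2082 bp). None of the 31 had a replicate 2 hotspot of 2000 bp or longer, so this list too stood high by replicate 1 lengths only.

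Of 340 listed developmental transcription factors 57 (16.8%, 95% Wilson interval 13.2% to 21.1%) had a broad shared hotspot. By length alone 20.3% did in replicate 1 and 7.06% in replicate 2. Among genes in the upper 5 of the 10 classes of promoter CpG ratio, 47 of 257 factors (18.3%) had one, against 14.4% of the 10620 other genes. Zinc finger factors had 15 of 59 (25.4%), of which 9 were KLF genes, led by Klf12 (4230 bp), Klf10 (4025 bp), Klf13 (4024 bp) and Klf6 (3589 bp), with Sp1, Sp3 and Sp4 at 2242, 2844 and 2372 bp. These families bind GC boxes. Of bHLH factors and their Id inhibitors 13 of 57 (22.8%) had one, including Id2 (4119 bp), the Notch targets Hes1 (2267 bp) and Hey1 (2125 bp), and Atoh1, which specifies cerebellar granule neurons (2009 bp, 69.7% covered). The proneural genes Neurog1 and Neurog2 had none, with longest replicate 1 hotspots of 462 and 1425 bp. The SOX list had 4 of 19, at Sox12 (4190 bp), Sox11 (3076 bp, inside a replicate 2 hotspot of 4316 bp), Sox4 (2715 bp) and Sox6 (2290 bp).

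Homeodomain genes outside the Hox and POU groups were near the share of all genes, with 5 of 79 (6.33%, 95% Wilson interval 2.73% to 14.0%), at Pbx3, Irx2, Satb1, Meis2 and Pbx2. By length alone 12.7% of that list had a hotspot of 2000 bp or longer in replicate 1 and 3.80% in replicate 2, against 9.1% and 2.22% of all genes. Of the POU factors, which also carry a homeodomain, 3 of 11 had a broad shared hotspot, at Pou2f1 (3091 bp), Pou3f2 and Pou3f3 (2242 bp). Of the Hox genes, which set position along the body axis, 2 of 15 in paralogue groups 1 to 5 and 0 of 24 in groups 6 to 13 had one. Hoxa2, which patterns the anterior hindbrain, lay at 2 broad shared hotspots of 2866 and 3568 bp (chr6:52162541-52165406 and chr6:52165428-52168995). The first lay wholly in a replicate 2 hotspot of 7289 bp. The second was covered for 80.5%, and its longest overlapping replicate 2 hotspot had 1986 bp. The hotspot at Hoxb3 spanned 3529 bp and was covered for 98.4%. Hoxb2 had a replicate 1 hotspot of 4615 bp within 1 kb of its start site that did not meet the coverage rule.

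Rapidly induced genes and basic cell functions were both represented. Of immediate early genes, which respond to stimuli without new protein synthesis, 10 of 26 (38.5%) had a broad shared hotspot. They included Jun (4380 bp), the ERK phosphatase Dusp6 (3327 bp), Ier5l (3088 bp) and Gadd45a (2360 bp). Egr1, also an immediate early gene but counted under zinc finger factors, had 3510 bp (94.7% covered). Housekeeping genes had 8 of 31 (25.8%), with 3223 bp at Gapdh and 2227 bp at Actb, and 4 of 31 in replicate 2. Ribosomal protein genes had 2 of 82 (2.44%), Rpl7 and Rpl10, although 78 of 82 had a shared hotspot of some length. Their promoter CpG ratio had a median of 0.783, and their longest hotspots had medians of 1057.5 bp in replicate 1 and 834.5 bp in replicate 2. Over all protein-coding genes those medians were 858 and 528 bp, and for pan-neuronal genes 2174 and 1523 bp.

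Genes of other tissues had almost none. The liver, skeletal muscle, blood and microglia, endothelial and meningeal, and germ line lists had 0 of 15, 15, 20, 21 and 15, and olfactory receptors 0 of 1093. With so few genes a count of 0 of 15 leaves a Wilson upper limit of 20.4%. Promoters of these genes were also poor in CpG, with list medians of the ratio from 0.106 (olfactory receptors) to 0.460 (germ line), against 0.558 over all genes. In the 5 lower classes of promoter CpG ratio, which hold those medians, between 0.919% and 6.20% of all genes had a broad shared hotspot. Of 14 epidermis genes 1 had one. That was Lor, a protein of the cornified skin layer, whose hotspot of 2390 bp (chr3:92080205-92082594) was covered for 85.9%, lay 548 bp from the start site and had a central CpG ratio of 0.947. Of 23 oligodendrocyte and astrocyte genes 1 did, the bHLH inhibitor Id4.

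**Figure D5:**
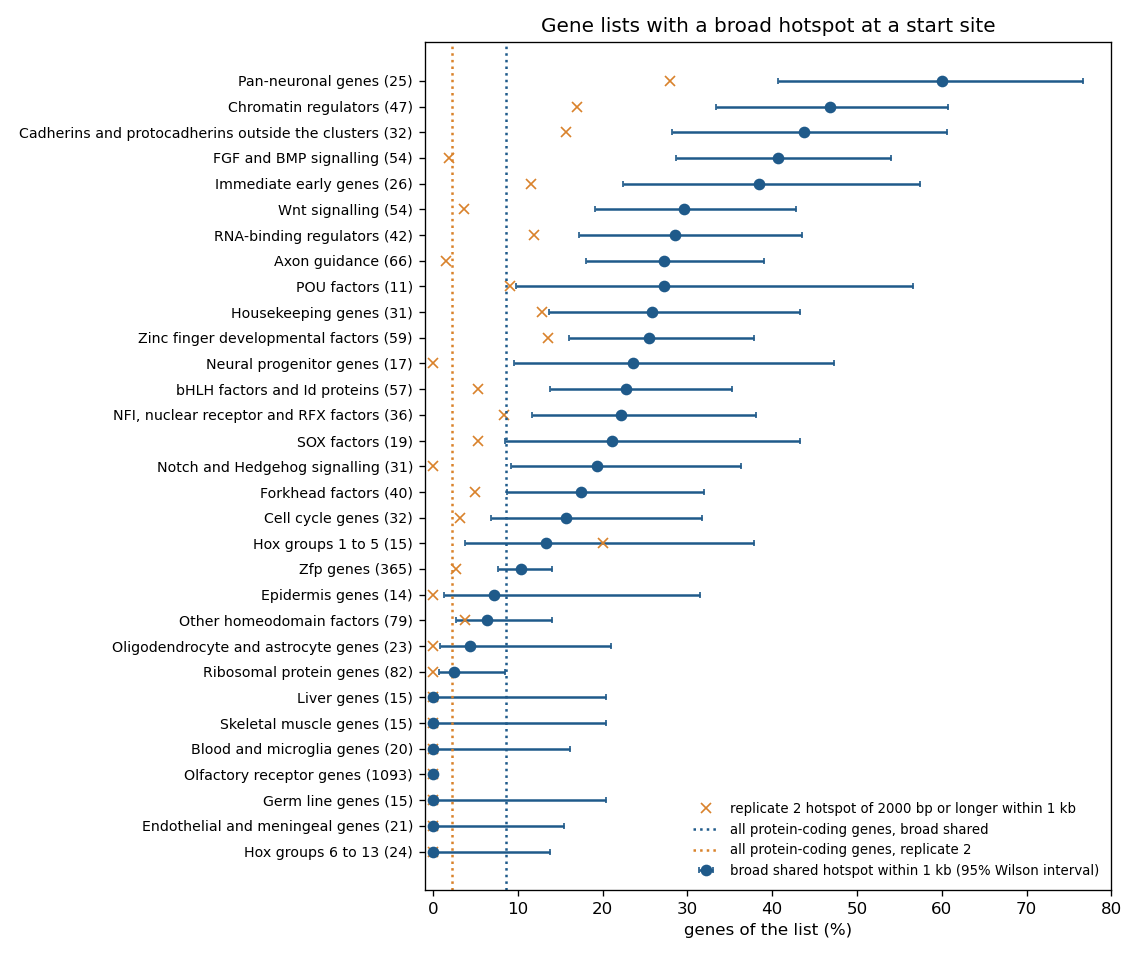
Percentage of the genes of each list with a broad shared hotspot within 1 kb of a start site (blue points, bars are 95% Wilson intervals for counting error) and with a replicate 2 hotspot of 2000 bp or longer (orange crosses). Numbers in brackets are genes in the list, and dotted lines are the values over all protein-coding genes, 8.55% and 2.22%. Pan-neuronal genes (60% and 28%) stand at the top. Posterior Hox genes (0 of 24) share the bottom with the liver, skeletal muscle, blood and microglia, endothelial and meningeal, germ line and olfactory receptor lists.

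Broad shared hotspots without a protein-coding start site were few. The 75 with only noncoding start sites had a median length of 2553 bp and a median of 5 peaks in each replicate, and 43 of them had a lincRNA within 1 kb and 8 a microRNA. The 138 with no start site had a median length of 2326.5 bp, close to the 2342 bp of those with a protein-coding start site, and lay a median of 37.8 kb from the nearest protein-coding start site (quartiles 6.84 to 91.1 kb). That distance was 46.9 kb in the 500 to 1000 bp class. Under 10 kb were 45 of 138 (32.6%), against 17.1% in the shorter class. Their highest peaks scored a median of 122 in replicate 1 and 79 in replicate 2, against 91 and 45. The longest spanned 5960 bp (chr14:122480230-122486189), 4397 bp from Gm10837, and began 98 bp past the end of the Zic2 hotspot that missed the coverage rule. The next lay 2125 bp from a start site of Slc17a6, the vesicular glutamate transporter of hindbrain excitatory neurons (4252 bp), and 56247 bp from Kif13b, a kinesin motor (3763 bp).

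The longest run of broad shared hotspots lay at Mir9-2, and the other miR-9 genes, on other chromosomes, were then looked up after these values were seen. miR-9 is a microRNA of the nervous system that restrains progenitor genes and promotes neuronal differentiation. All 3 of its genes give the same mature products, shown with the seed, bases 2 to 8, in capitals (RefSeq, GRCm38.p6).
mmu-miR-9-5p: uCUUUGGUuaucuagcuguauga
mmu-miR-9-3p: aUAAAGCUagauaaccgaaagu
At Mir9-2, 7 broad shared hotspots with gaps of 10 kb or less lay over chr13:83712677-83741261 and summed to 24891 bp. They ran along the noncoding genes C130071C03Rik, Gm26803 and Gm33366, between 137000 and 161377 bp from the nearest protein-coding start site, that of Mef2c. The longest spanned 5660 bp, was covered for 99.3% and held 11 peaks in replicate 1 and 14 in replicate 2. The hairpin lay inside the last, of 4208 bp, covered for 99.5% and with 8 peaks in each replicate. Coverage by replicate 2 was between 94.8% and 100% in all 7.

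At Mir9-3, 4 broad shared hotspots lay over chr7:79497614-79516958 and summed to 13340 bp. The first, of 5272 bp at the host gene Mir9-3hg, was split into 10 hotspots in replicate 2 (71.3% covered), and the hairpin lay in the second, of 2926 bp (81.3% covered). Mir9-1 lay 4321 bp outside a broad shared hotspot of 6563 bp at the noncoding genes AI849053 and Gm3764 (chr3:88204714-88211276). It was the second longest of all, with 62.0% covered and 13 peaks in each replicate. Over all 1005 annotated hairpins, 65 (6.47%) lay within 10 kb of a broad shared hotspot and 23 inside one. For the 15000 shorter hotspots the counts were 240 (23.9%) and 17.

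In all 86 broad shared hotspots (4.50%) lay in runs with gaps of 10 kb or less. Some neighbours at Mir9-2, Mir9-3, Nrn1 and Hoxa2 lay less than 150 bp apart. The counts are thus of hotspots as called and can exceed the number of separate regions. Runs of 4 lay at Nrn1, which encodes the neuritin protein of growing neurites, and at Pou3f2, a POU factor of neural progenitors and neurons. At Nrn1 the hotspots were 2050, 2228, 2576 and 3364 bp long and were covered for 69.0%, 88.4%, 99.2% and 98.6%. At Pou3f2 they were 2253, 2530, 2552 and 2200 bp long, and the one over the start site held the highest score, 141 in replicate 1 and 117 in replicate 2. Of protein-coding genes, 16 had 2 broad shared hotspots within 1 kb of their start sites, and Camta1, a calmodulin-binding transcription activator, had 3. By chromosome, 3.27% of X-linked genes had one, and between 6.35% (chromosome 2) and 14.5% (chromosome 12) of the genes of each autosome.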

How the data were processed

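The authors called hotspots and 150 bp peaks in each replicate on its own, from filtered mm10 alignments, per the text files deposited with the samples. No aligner, caller, version or threshold is named there or in the labels. Deposited hotspots carry a −log10 q-value (1.30 to 6, or a cap of 100). Deposited peaks carry a score, a whole number up to 150 whose meaning and scaling are not stated, so scores are not compared in size between replicates. Scripts in Python 3.11.15 (numpy 2.4.6, pandas 2.3.3) measured lengths, coverage by the union of replicate 2 hotspots, peak midpoints inside hotspots, and CpG ratios on GRCm38.p6. Island-like windows of 200 bp had over 50% GC and a CpG ratio over 0.6. Start sites were those of the GENCODE M21 basic set. All hotspot ends lay within the GRCm38 chromosome lengths. The functions were tested on simulated regions.

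With 1 group and members chosen by the readout, values are descriptions with no test. Members, the 28 hand-written gene lists, 17 motifs and the comparison were chosen with earlier results of these data known, and the motif count over highest peaks came after that over all peaks. Named genes were the 15 longest members, the 5 longest without a start site, the 5 with most peaks, up to 4 per list, those at the thresholds and other listed genes. No chromosome 18 sequence was printed. Alternatives changed the length, coverage and distance thresholds, the reference replicate, joined hotspots and the CpG window.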

Additional observations from a re-analysis of the deposited data

Results flagged for a closer look

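Replicate 2 held 10 hotspots of 2000 bp or longer with less than 50% of their length in replicate 1 hotspots, regions that the broad shared hotspots leave out. The longest, 3649 bp, lay at Evx2, a homeodomain gene beside the HoxD cluster (chr2:74656080-74659728), and had 13.9% of its length covered, with 8 peaks in replicate 2 and 4 in replicate 1. Others lay 4262 bp from Pou3f3 (2646 bp) and within 1 kb of Cdkn2c (2352 bp). At the Pou3f3 and Cdkn2c regions replicate 1 had no hotspot and no peak, while replicate 2 had 5 peaks in each. Their central CpG ratio was 0 in both, against 1 at Evx2. No cause was tested.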

How the results depend on the processing

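The number of broad hotspots followed the length threshold and the replicate it was applied to. It was 1912 as reported, 520 to 2068 by length in a single replicate, 510 in replicate 2 with the coverage rule, 4835 at 1500 bp and 280 at 3000 bp. The share with a protein-coding start site was 82.9% to 87.9% by length in a single replicate, 83.5% in replicate 2 with the coverage rule, 84.8% from the midpoint and 81.9% with the outermost start of each gene. The median central CpG ratio was 0.788 to 0.816 by length in a single replicate, 0.791 in replicate 2 with the coverage rule, 0.739 at 3000 bp, 0.795 with hotspots within 150 bp joined and 0.719 over whole hotspots. Peaks per kb, whose spread between replicates was only 0.00570, were 1.78 to 1.79 by length in a single replicate and 1.785 in replicate 2 with the coverage rule. They were 1.73 at 1500 bp, 1.87 at 3000 bp, 1.78 at 25% coverage, 1.76 at 75%, 1.88 joined and 1.79 for peaks with any overlap. The share of listed transcription factors was 7.06% to 20.3% by length in a single replicate, 6.47% in replicate 2 with the coverage rule, 26.5% at 1500 bp and 6.76% at 3000 bp. For the comparison class, the start-site share was 17.7% to 47.1%, the CpG ratio 0.328 to 0.549 and the peaks per kb 1.77 to 1.84 by length in a single replicate. Between 1000 and 2000 bp these were 71.5%, 0.757 and 1.66. In each of these settings that kept the 500 to 1000 bp class, the broad hotspots had the higher start-site share and CpG ratio. The other 32 values moved by less than the spread between the replicates, or by less than 1.5 times for counts. No paired analysis was possible because there is a single group and no test. Unknown read depth limits every statement on length in replicate 2.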
